A study of Mus musculus with 17 samples.

Results

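The 60 coding transcripts described here each carried small RNA reads in wild-type mouse testis at a level of 50 CPM or more. CPM is a count scaled to the depth of its library. They were chosen by level: an Ensembl transcript with a coding size entered when its counts reached 50 CPM of all counts listed for a library in both wild-type small RNA libraries. That left 60 of 18286 coding transcripts, among 37991 Ensembl transcripts and 38458 entries counted in all. The wild-type small RNA levels thus chose the transcripts, and these levels and the change from them are given as a description only. The 3 transcripts closest above the threshold had 50.4, 52.9 and 53.3 CPM in the lower of the wild-type libraries, and the 3 closest below had 48.9, 48.1 and 45.2 CPM.

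All libraries came from testis of 129SvJae mice, either wild type or Mael-/-. Each genotype had 2 libraries (a and b) of small RNA of 15 to 50 nt, 2 of mRNA and 2 of ribosome footprints of 26 to 34 nt. RNA immunoprecipitates came from wild type: 2 libraries of long RNA with anti-MAEL, 1 of long RNA with rabbit IgG, 1 of 50 to 150 nt RNA with anti-MAEL and 1 of 15 to 50 nt RNA with anti-MAEL. The labels give neither the age of the mice nor the nature of the Mael allele, and do not say whether a group's libraries were made from different animals. The p-values therefore rest on the spread between these libraries, which may be technical.

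As background, piRNAs are germ cell small RNAs that are bound by PIWI proteins and direct them to transposon and other transcripts. Many are cut from long noncoding transcripts of intergenic clusters, and others come from messenger RNAs, mostly from their untranslated regions. Maelstrom (MAEL) is a germ cell protein required in the male germ line for transposon repression and for normal spermatogenesis.

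Library totals were 7965047 to 80965066 counts for small RNA, 4130509 to 15372210 for mRNA and 1668197 to 5009051 for footprints. For long RNA, the anti-MAEL libraries totalled 6074129 and 11412848 counts and the IgG library 7924898. The level of Mael and of marker genes of testis cells was not analysed here, because 0 of the 60 transcript IDs matched a reference table and the files do not pair IDs with gene names. No sequences are shown for the same reason. In whole testis, fewer cells of a type and less RNA per cell cannot be told apart.

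The 60 transcripts together took 1.62% ± 0.0136 (SD, n = 2) of wild-type small RNA counts and 2.98% ± 0.163 of Mael-/- counts. They held 54.3% of all small RNA counts on coding transcripts in wild type and 44.1% in Mael-/-. In mRNA they took 0.379% ± 0.0407 of counts in wild type and 0.468% ± 0.146 in Mael-/-, and in footprints 0.148% and 0.176%. The mRNA and footprint files list coding transcripts alone, so these shares have another denominator than those of small RNA. The share of mRNA overlapped between genotypes, at 0.350% and 0.407% for wild type and 0.365% and 0.571% for Mael-/-.

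Per kilobase of transcript, wild-type small RNA ranged from 7.91 to 1434 CPM with a median of 55.4, against 0.0217 for the other 18226 coding transcripts. The rule did not use the other assays. Its threshold was on counts not scaled by length, so at equal density a longer transcript passed more easily. The median transcript was 2835 nt against 1922 nt for the others, with 1345.5 nt of coding sequence against 972 nt and 1441.5 nt outside it against 658 nt. Per kilobase of coding sequence, the median mRNA level in wild type was 49.2 CPM against 4.04. The median footprint level, not scaled by length, was 11.7 CPM against 4.09. The transcripts were thus mostly longer, which the rule favoured to an extent not tested, and better expressed at the median. These medians count near-identical transcripts, described below, each on its own. For the 30 called the other transcripts below, the medians were 10.6 CPM of mRNA per coding kilobase and 3.04 CPM of footprints. For the 13 with a locus entry they were 60.7 and 23.2 CPM. Better expression thus did not hold for footprints of the 30. Expression was not high in all: 5 had a wild-type mRNA mean under 1 CPM, 9 had at least 100 CPM, and 1 had 0 mRNA counts in all 4 libraries. Across the 60, the log2 levels of wild-type small RNA and mRNA gave a Pearson correlation of -0.07 (Spearman 0.12), over transcripts of the same libraries, some of which share reads.

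The 60 were divided into 3 kinds after their values were seen. For 13, the counts matched those of an entry for a piRNA locus to within 0.2 on the log2 scale in each of the 9 libraries that list both. Of these loci, 12 carry gene names: pi-Tbl2, pi-1700006A11Rik, pi-Gm5878, pi-Nr2c2, pi-Arhgap20, pi-Eif2c2, pi-Kctd7, pi-Fth1, pi-Bcl2l13, pi-Mgll, pi-Ddx19b and pi-Zfp280b. The other is named by a chromosome band. These names belong to the locus entries, and the transcripts are called by them below. A further 17 transcripts fell into 4 groups, called near-identical, by their counts in mRNA and long-RNA immunoprecipitates: 7 of 1866 to 1869 nt, 6 of 909 to 1452 nt, 2 of 6843 and 7232 nt, and 2 of 1710 nt. Transcripts were joined, in chains where needed, when counts lay within 0.5 on the log2 scale in each of these 7 libraries. Each mRNA count had to be at least 20, so transcripts with fewer could not be grouped. Within the 6, levels in anti-MAEL a ranged from 1105 to 1554 CPM. The sources used here do not give how reads matching several transcripts were assigned, so the values of these 17 are not independent and each is uncertain. Counting 1 transcript per group leaves 47. The last 30 are called the other transcripts.

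Among the other transcripts, 3 (4413, 2741 and 1344 nt) had small RNA counts within 2.91% of each other in every library, so these reads too may be shared. The transcripts with a locus entry were the richest in sequence outside the coding part, with a median of 76.4% (16.4% to 93.6%), against 38.5% for the coding transcripts that were not chosen. The pair of 1710 nt had 0% and the 7 transcripts of 1866 to 1869 nt had 25.7%.

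The 3 kinds of transcript took different proportions of the small RNA in wild type and Mael-/-. Transcripts with a locus entry went from 24.4% of the counts on all 60 to 10.03%, and the near-identical transcripts from 15.0% to 36.1%. The other transcripts went from 60.6% to 53.9%. These shares are sums, so single entries weigh on them. Among the near-identical transcripts, the pair of 6843 and 7232 nt went from means of 198 and 200 CPM to 2042 and 2064 CPM. Among the others, ENSMUST00000100355 went from 4860 to 10465 CPM. In CPM, 9 of 13 transcripts with a locus entry were lower in Mael-/-, 0 of 17 near-identical transcripts were lower, and the other transcripts divided into 15 lower and 15 higher.

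**Figure D1:**
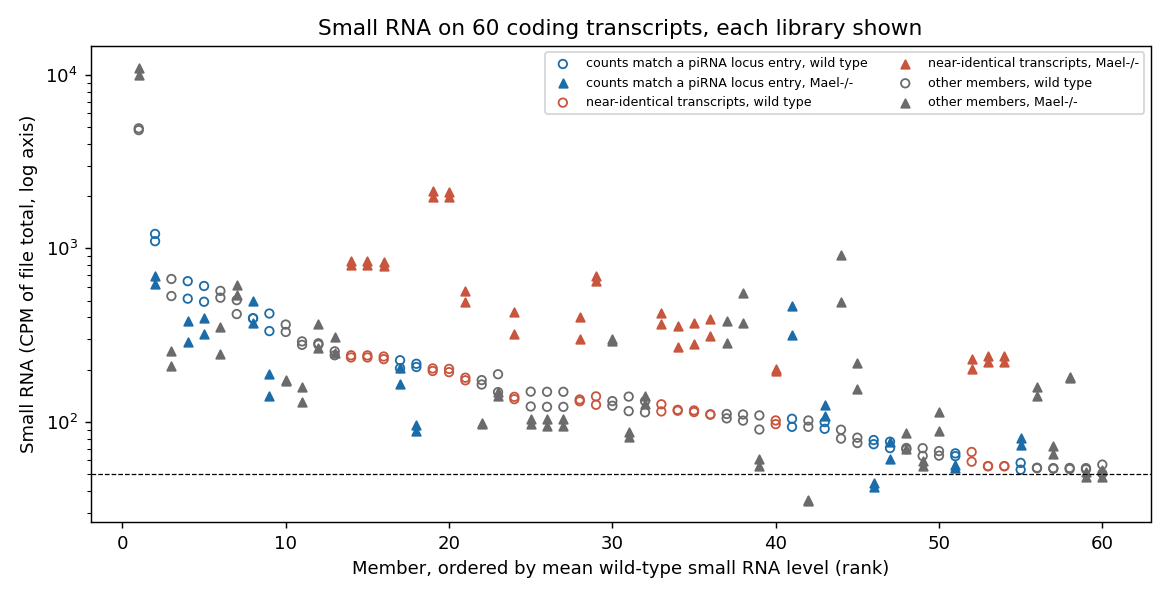
Small RNA in CPM of the library total (log axis) for the 60 transcripts, ordered along the x axis by their mean wild-type level. Circles are wild-type libraries, triangles Mael-/- libraries, colours the 3 kinds of transcript, and the dashed line marks 50 CPM; most blue triangles lie below their circles, while all 17 near-identical transcripts have red triangles above.

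Scaling sets the direction of many of these changes. Fold changes on the log2 scale below come from edgeR's quasi-likelihood fit over all features with TMM scaling, which sets each feature against the bulk of the others. Library totals gave small RNA log2 fold changes 1.37 higher at the median, so a transcript higher in CPM can be lower relative to the bulk. With TMM the median of the 60 was -0.99, with 22 above 0 and 38 below, and the median of all 9906 features was 0.15. Of the 60, 2 passed an adjusted p of 0.05 as higher and 9 as lower, where 3.82% of all features were called higher and 3.49% lower. In CPM, 31 had both Mael-/- libraries above both wild-type libraries and 22 had both below, against 69% and 5.03% of all features. Nothing is read from these counts, because the wild-type libraries chose the transcripts. For most alternative fits, here and in the other assays, the share called over all features is not given. Counts of those fits thus cannot tell a move of the 60 from a move of the whole fit. With library totals the calls were 26 higher and 12 lower around a median of 0.31. Single libraries moved them too: without wild-type a they were 0 and 0, without wild-type b 0 and 1, without Mael-/- a 3 and 36, and without Mael-/- b 16 and 27.

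ENSMUST00000100355, of 3389 nt, held 30.1% of the wild-type counts on the 60 transcripts and was the densest per kilobase. Its small RNA level was 4918 and 4802 CPM in wild type and 9918 and 11013 CPM in Mael-/-, a 2.15-fold higher mean, while its TMM-scaled log2 fold change was -0.20 ± 0.599 (SE). The latter was -0.86 without Mael-/- replicate a and 0.24 without b, so scaling and single libraries set its direction. Both Mael-/- libraries were above both wild-type libraries in CPM. The transcript gave 1 mRNA count in the wild-type libraries and 4 in the Mael-/- libraries. Footprint counts were 0 in all 4 libraries, which allows up to 0.599 and 0.911 CPM in wild type and 1.10 and 1.798 CPM in Mael-/- (3 counts each, covering counting error only). The long RNA was present in the immunoprecipitates, at 140.3 and 79.2 CPM in the anti-MAEL libraries against 12.6 CPM in the IgG library (log2 fold change 3.65 ± 0.594, adjusted p = 0.0171, edgeR). Without anti-MAEL a the log2 fold change was 2.75.

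The near-identical pair ENSMUST00000169045 and ENSMUST00000062637, of 6843 and 7232 nt, had the highest small RNA log2 fold changes. The first went from 193 and 202 CPM in wild type to 1969 and 2114 CPM in Mael-/-, and the second from 196 and 203 to 1987 and 2142 CPM. Each mean was 10.3-fold higher, or 2.07 on the TMM-scaled log2 scale, with an SE of 0.547 for each. Without Mael-/- replicate a the value was 1.38 for each. The genotypes did not overlap for either transcript.

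The lowest values were at ENSMUST00000165099 and ENSMUST00000061823, both among the other transcripts. The first went from 102 and 93.5 CPM to 35.1 and 35.3 CPM, a log2 fold change of -2.77 ± 0.508 (SE), and its mRNA was low in both genotypes, at 0.911 to 1.21 CPM. The second went from 531 and 665 CPM to 256 and 209 CPM, a log2 fold change of -2.59 ± 0.570. Without Mael-/- replicate a the values were -3.51 and -3.55, and without b the second was -2.005. In both, every Mael-/- library was below every wild-type library. In mRNA the second stood at 44.4 and 43.5 CPM in wild type and 35.3 and 27.1 CPM in Mael-/-, and the log2 fold change was -0.77, short of the threshold (adjusted p = 0.0608, edgeR; 0.0216 without Mael-/- a).

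Among the transcripts with a locus entry, 12 of 13 had a small RNA log2 fold change below 0 with TMM scaling, around a median of -1.52. The transcript at pi-Tbl2 (ENSMUST00000153183), named for a WD-repeat protein, was the highest of them in CPM, at 1099.5 and 1210.4 CPM in wild type and 695 and 627 CPM in Mael-/-. Its log2 fold change was -2.06 ± 0.572 (SE). Per kilobase, pi-1700006A11Rik was the densest of the 13 at 341 CPM, against 206 at pi-Tbl2. The lowest fold change was at pi-Kctd7, named for a potassium channel tetramerisation domain protein, which went from 207 and 216 CPM to 87.9 and 95.8 CPM, a log2 fold change of -2.50 ± 0.510. At pi-Arhgap20 the level went from 333 and 421 CPM to 188 and 141 CPM. The genotypes did not overlap at these 3 loci. Without Mael-/- replicate a the log2 fold change was -2.92 at pi-Tbl2 and -3.18 at pi-Kctd7.

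The exception above 0 was pi-Fth1, named for the heavy chain of the iron store ferritin. Its small RNA went from 104 and 93.5 CPM to 318 and 465 CPM, a log2 fold change of 0.62 ± 0.477. In mRNA the transcript stood at 241 and 182 CPM in wild type and 497 and 364 CPM in Mael-/- (log2 fold change 0.75; adjusted p = 0.0755, edgeR; 0.0408 without Mael-/- b). Its small RNA was scarce in the anti-MAEL immunoprecipitate of 15 to 50 nt, at 0.482 CPM. At pi-Nr2c2, named for an orphan nuclear receptor, wild-type libraries at 395 and 395 CPM lay between the Mael-/- libraries at 370.3 and 498 CPM, so the genotypes overlapped.

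The next comparison asked whether the mRNA of these transcripts differed between wild type and Mael-/- testis. Of the 60, 54 passed the filter on low counts, 18 were lower and 1 was higher in Mael-/- (edgeR quasi-likelihood, adjusted p under 0.05). Among all 11181 transcripts tested, 17.7% were lower and 15.2% higher. The median log2 fold change was -0.30 (22 above 0, 32 below), against 0.21 for all transcripts tested. With 1 transcript per near-identical group, 12 of 41 were lower and 1 was higher. The calls rest on both wild-type libraries: without wild-type a, or without wild-type b, 0 of the 60 were called in either direction. With library totals, which raise the median of all transcripts by 0.28, 7 were higher and 15 lower.

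The 8 lowest mRNA values were those of the pair of 1710 nt and the 6 transcripts of 909 to 1452 nt. ENSMUST00000084677 and ENSMUST00000098119 had identical mRNA counts, at 78.8 and 74.7 CPM in wild type and 11.3 and 12.3 CPM in Mael-/-. The log2 fold change was -2.98 ± 0.258 (SE; adjusted p = 0.0330, edgeR), and the genotypes did not overlap. Without wild-type mRNA a the adjusted p was 0.165, and without b 0.240. Small RNA on the same transcripts was not lower in CPM, at 102 and 96.9 against 202 and 195 CPM for ENSMUST00000084677 and 67.0 and 58.9 against 229 and 201 CPM for ENSMUST00000098119. With TMM scaling the log2 fold changes were -0.29 and 0.50, and each turned sign without 1 of the Mael-/- libraries.

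The 6 transcripts of 909 to 1452 nt fell in mRNA by 2.49 to 2.61 on the log2 scale, from means of 49.0 to 54.7 CPM in wild type to 10.7 to 11.0 CPM in Mael-/- (adjusted p = 0.0330 for each, edgeR). Their small RNA means were 3.0003 to 4.14-fold higher in Mael-/- in CPM, with log2 fold changes of 0.27 to 0.78. A transcript of 3348 nt among the others, singled out after its values were seen, had a like fall in mRNA. Its mRNA went from 94.2 ± 3.76 to 20.7 ± 2.63 CPM (SD, n = 2). The log2 fold change was -2.47 (adjusted p = 0.0330, edgeR). Its small RNA was also higher in CPM, going from 128 ± 5.54 to 296 ± 7.09 CPM. With TMM scaling its small RNA log2 fold change was -0.08, below 0 unlike those of the 6. Neither this transcript nor any of the 6 was called in small RNA. The 7 transcripts of 1866 to 1869 nt were not called, with mRNA log2 fold changes of -0.03 to 0.27 and adjusted p of 0.620 to 0.997 (edgeR quasi-likelihood).

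The transcripts of 3 loci also fell in mRNA. At pi-Mgll, named for monoacylglycerol lipase, mRNA went from 188 and 175 CPM to 102 and 72.4 CPM, a log2 fold change of -1.33 ± 0.265 (SE; adjusted p = 0.0330, edgeR). The transcript at pi-Gm5878 went from 10.4 and 9.80 CPM to 5.39 and 2.91 CPM (log2 fold change -1.54; adjusted p = 0.0365, edgeR). At pi-Kctd7 the change was from 124 and 107 CPM to 78.1 and 47.9 CPM (log2 fold change -1.15; adjusted p = 0.0374, edgeR). In all 3, both Mael-/- libraries lay below both wild-type libraries. Besides the loss without either wild-type library, the calls at pi-Gm5878 and pi-Kctd7 were lost without Mael-/- b (adjusted p = 0.0807 and 0.0508, edgeR) and that at pi-Kctd7 with library totals (0.0591). Without Mael-/- a their log2 fold changes were -2.28 and -1.76. Small RNA was lower in CPM at the same loci, by 1.76-fold at pi-Mgll, 1.53-fold at pi-Gm5878 and 2.30-fold at pi-Kctd7.

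ENSMUST00000107022, of 3695 nt, was the transcript that rose in mRNA, from 14.4 and 13.8 CPM to 64.9 and 39.5 CPM. Its log2 fold change was 1.61 ± 0.321 (SE; adjusted p = 0.0330, edgeR; 0.166 and 0.240 without wild-type a or b), and 0.99 without Mael-/- a. Footprints rose from 69.3 and 55.3 CPM to 110.4 and 96.5 CPM (log2 fold change 0.62; adjusted p = 0.00806, edgeR), and small RNA went from 54.2 and 53.4 CPM to 181 and 179 CPM. The footprint call was lost in 3 of 10 alternative fits, without Mael-/- a (adjusted p = 0.0723, edgeR), without wild-type b (0.0603) and with DESeq2 (0.0576). With TMM scaling the small RNA log2 fold change was 0.45, and -0.31 without Mael-/- a. All 3 assays had every Mael-/- library above every wild-type library. The pair ENSMUST00000169045 and ENSMUST00000062637 had mRNA log2 fold changes of 1.42 and 1.41, which did not pass (adjusted p = 0.0806 for both, edgeR). They passed without Mael-/- a (adjusted p = 0.0128 and 0.0136, edgeR) and with library totals (0.0469 for both). Their Mael-/- mRNA libraries were far apart, at 420.1 and 1121 CPM for the first, with 162 and 315 CPM in wild type.

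**Figure D2:**
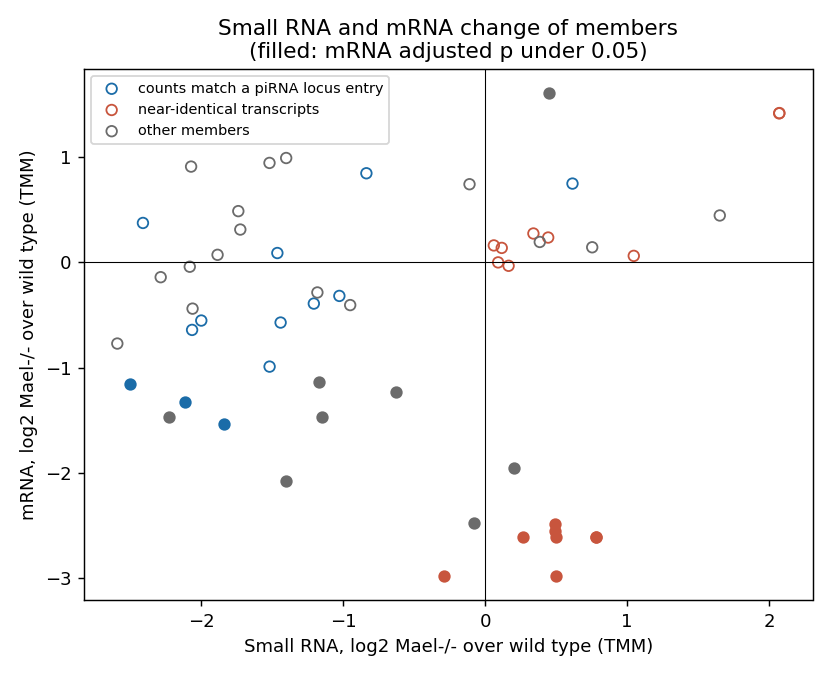
Log2 fold change of mRNA (y axis) against that of small RNA (x axis), Mael-/- over wild type with TMM scaling, for the 54 transcripts tested in mRNA; filled points passed the mRNA test. The filled red points, near-identical transcripts, lie at mRNA values of -2.98 to -2.49 and small RNA values of -0.29 to 0.78, and the filled blue points, transcripts with a locus entry, lie below 0 on both axes.

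Across the 54, small RNA and mRNA log2 fold changes gave a Pearson correlation of -0.01 (Spearman 0.03), and 0.15 over 41 with 1 transcript per near-identical group. The points share the same 8 libraries. Both changes were below 0 for 22 transcripts and above 0 for 12, and 10 transcripts lay in each of the mixed classes. Transcripts with small RNA below the bulk thus had mRNA values on either side of 0.

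Ribosome footprints, the fragments of coding sequence that a ribosome protects, were compared next to ask whether translation of these transcripts differed. Of the 60, 41 passed the filter, 4 were higher and 7 lower in Mael-/- (edgeR quasi-likelihood), where 11.3% of all 9783 transcripts tested were higher and 20.3% lower. The median log2 fold change was -0.11, against 0.06 for all. The 7 became 2 without wild-type a, 3 without Mael-/- a, 4 without wild-type b and 4 without Mael-/- b, and 2 with DESeq2, while the higher count stayed between 3 and 5 in these fits.

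Footprints on ENSMUST00000169045 rose from 16.8 and 23.7 CPM to 82.2 and 89.9 CPM, a log2 fold change of 1.9996 ± 0.197 (SE; adjusted p = 2.03e-05, edgeR). Those on ENSMUST00000062637 rose from 17.6 and 22.8 CPM to 80.8 and 86.9 CPM (1.96 ± 0.186; adjusted p = 1.57e-05, edgeR). The genotypes were far apart in both, as they were in small RNA. Besides ENSMUST00000107022, the fourth to rise was a transcript of 554 nt, from 196 ± 2.56 to 322 ± 42.6 CPM (SD, n = 2; adjusted p = 0.00334, edgeR). It was singled out as the remaining one, and its small RNA went the other way, from 169 ± 6.99 to 98.3 ± 1.06 CPM.

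Of the footprint falls, that of the transcript at pi-1700006A11Rik went from 41.7 and 54.7 CPM to 25.2 and 12.6 CPM, a log2 fold change of -1.38 ± 0.277 (SE; adjusted p = 0.00292, edgeR), and -2.08 without Mael-/- a. Its mRNA overlapped between genotypes, at 70.0 and 102 CPM against 72.7 and 69.5 CPM. Small RNA there was lower, at 513 and 647 CPM in wild type and 383 and 289 CPM in Mael-/-. At pi-Kctd7 footprints went from 19.96 and 13.4 CPM to 5.48 and 9.59 CPM (log2 fold change -1.33; adjusted p = 0.0183, edgeR). That call was lost in 4 of 10 alternative fits, among them those without wild-type a (0.115), without Mael-/- a (0.0929) and with DESeq2 (0.0823).

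The pair of 1710 nt had few footprints, at 4.79 and 3.65 CPM in wild type and 0.731 and 1.20 CPM in Mael-/-, and passed the test with a log2 fold change of -2.28 (adjusted p = 0.0286, edgeR). The call was lost in 5 of 9 alternative fits, among them those without wild-type b (0.0988), without Mael-/- a (0.257) or b (0.124) and with DESeq2 (0.189). At pi-Mgll, where mRNA fell, footprints overlapped between genotypes, at 14.8 and 25.8 against 12.1 and 30.0 CPM. The 7 transcripts of 1866 to 1869 nt had footprint log2 fold changes of -0.23 to -0.02, none called (adjusted p of 0.628 to 0.972, edgeR). Over the 41 transcripts tested in both assays, mRNA and footprint changes gave a Pearson correlation of 0.903 (Spearman 0.774), and 0.834 over 29 with 1 transcript per near-identical group, with no libraries in common.

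**Figure D3:**
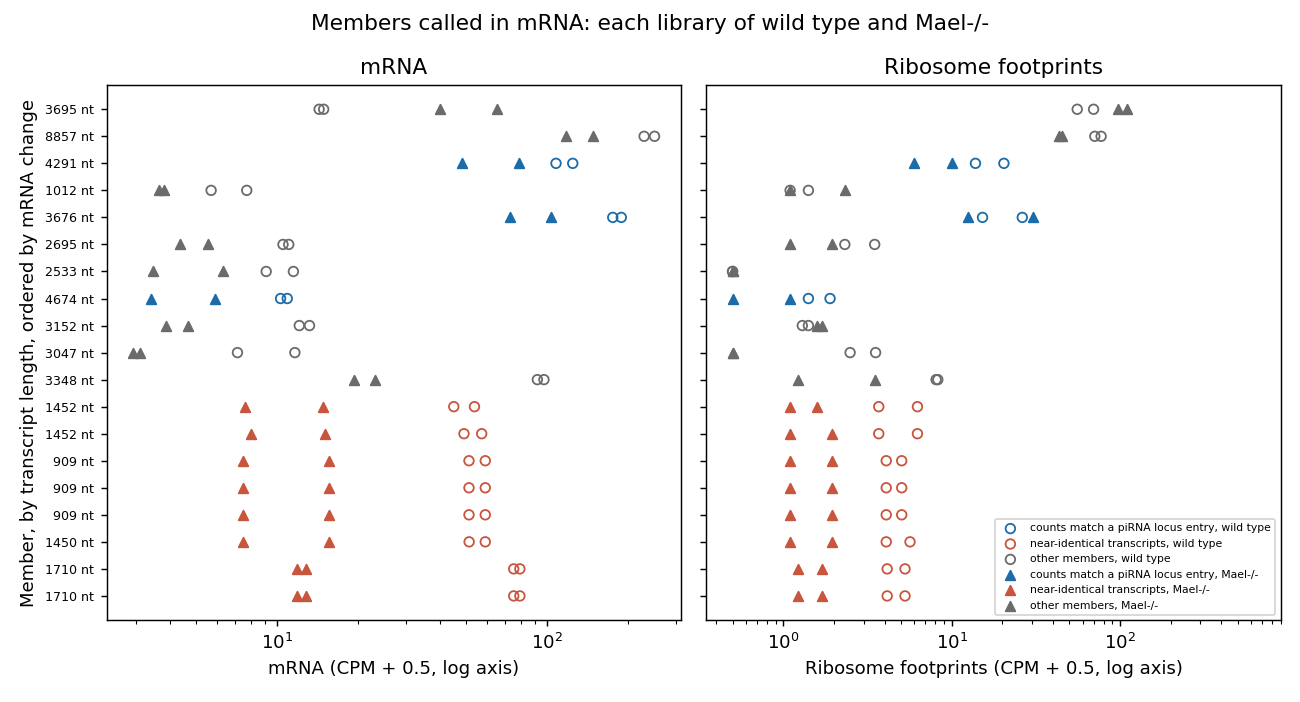
Levels of the 19 transcripts that passed the mRNA test, in mRNA (left) and ribosome footprints (right), as CPM plus 0.5 on log axes, each row 1 transcript by its length. Circles are wild-type libraries and triangles Mael-/- libraries; in mRNA the genotypes do not overlap in any row, while at 3676 nt (pi-Mgll) the footprint libraries interleave.

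For the ratio of footprints to mRNA (translational efficiency), 0 of the 54 transcripts tested passed, as did 0% of all 11427 (edgeR quasi-likelihood, interaction of assay and genotype). At an unadjusted p of 0.05, 5 of the 54 and 915 of all passed, and DESeq2 called 0 of the 54. The median of the 54 was 0.24, against -0.19 for all, and it turned to -0.19 without Mael-/- footprint a.

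Anti-MAEL was then set against IgG to ask which of these RNAs came down with the protein as long RNA. Of the 60 transcripts, 32 (53.3%) were above IgG and 0 below (edgeR quasi-likelihood over 5 libraries, including 2 of wild-type mRNA), while 0.869% of all 12431 coding transcripts tested were higher. The median log2 fold change was 2.73, against 0.01 for all. With 1 transcript per near-identical group, 19 of 47 were higher and the median was 1.78. Without anti-MAEL a, 25 were higher, and without anti-MAEL b 29. In a fit of the 3 immunoprecipitates alone 28 were higher, where 1.28% of 16066 features were. The single IgG library is assumed to vary like the others, so these p-values hold no measured spread of the background. Some calls rest on very few IgG counts. The called transcripts of 2179 and 2963 nt had 2 and 3 counts in IgG. With anti-MAEL they had 30 and 57 counts, and 31 and 82 counts.

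All 17 near-identical transcripts were higher with anti-MAEL, as were 13 of the 30 other transcripts and 2 of the 13 with a locus entry (edgeR quasi-likelihood). The difference between these kinds was not tested. The largest fold change among called transcripts was that of ENSMUST00000084677 and ENSMUST00000098119, each at 1282 and 874 CPM in the anti-MAEL libraries against 23.1 CPM in IgG (log2 fold change 6.06, SE 0.555; adjusted p = 0.00125, edgeR). Both anti-MAEL libraries were far above IgG, and without anti-MAEL a the value was 5.34. The 6 transcripts of 909 to 1452 nt had log2 fold changes of 5.36 to 5.58, and the 7 of 1866 to 1869 nt of 3.66 to 3.88 (adjusted p at most 0.00519, edgeR). The pair of 6843 and 7232 nt had 3.71 and 3.61, from 1766 and 1313 CPM against 167 for ENSMUST00000169045 and 1831 and 1380 against 186 CPM for ENSMUST00000062637. In the fit of 3 immunoprecipitates, 1 of the 6 (adjusted p = 0.0546, edgeR) and both of this last pair lost their call (adjusted p = 0.186 and 0.210, edgeR). Without anti-MAEL a the values of this pair were 3.08 and 2.99.

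Of the transcripts with a locus entry, that at pi-Eif2c2 was far above IgG. The locus is named for Argonaute 2 (Eif2c2), the slicing Argonaute of the microRNA pathway. Its level was 456 and 429 CPM in the anti-MAEL libraries against 26.1 CPM in IgG (log2 fold change 4.55, SE 0.403; adjusted p = 0.00125, edgeR), and its mRNA overlapped between genotypes, at 54.3 and 51.2 CPM in wild type and 53.2 and 83.0 CPM in Mael-/-. The transcript at pi-Tbl2 stood at 268 and 221 CPM against 63.7 CPM (log2 fold change 2.42; adjusted p = 0.0173, edgeR). That call was lost in the fit of 3 immunoprecipitates (0.0705), without anti-MAEL a (0.0567) and with library totals (0.289). At pi-Zfp280b, named for a zinc finger protein, the log2 fold change of 2.44 did not pass (adjusted p = 0.0615, edgeR; 0.0458 with 3 immunoprecipitates and 0.0392 without anti-MAEL b), and it was 1.78 without anti-MAEL a. At pi-Arhgap20 it was 1.72, with adjusted p = 0.0849 (edgeR quasi-likelihood). Both passed with DESeq2 (adjusted p = 0.000356 and 0.00784) and with no filter on low counts.

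At the remaining 9 loci the log2 fold changes were -0.14 to 0.60 and none passed (edgeR quasi-likelihood). At pi-Nr2c2 the values were 50.5 and 83.9 CPM against 96.5 CPM in IgG, at pi-Mgll 74.4 and 117 against 107 CPM, and at pi-Fth1 81.7 and 97.9 against 93.9 CPM. At pi-Ddx19b, named for an RNA helicase of mRNA export, they were 115 and 175 against 155 CPM. At pi-Bcl2l13, named for a mitochondrial protein of the Bcl-2 family, they were 31.1 and 45.5 against 43.4 CPM. In these 5, at least 1 anti-MAEL library was below IgG. The same held at pi-1700006A11Rik (30.8 and 44.9 against 36.0 CPM) and pi-Gm5878 (44.8 and 50.6 against 46.8 CPM). It held too at the locus named by a chromosome band (133.7 and 195.3 against 220.7 CPM). At pi-Kctd7 both were above, at 55.0 and 61.9 against 52.1 CPM. The transcripts with a locus entry had a median log2 fold change of 0.46, the value at pi-Gm5878. In CPM their median ratio to IgG was 1.02, because scaling counts here too. Library totals in place of TMM moved anti-MAEL log2 fold changes by -0.36 at the median of all coding transcripts tested. Another transcript, ENSMUST00000038863, singled out after its values were seen, held most of the counts of the 60 in every long-RNA immunoprecipitate, at 261634 and 230866 CPM in the anti-MAEL libraries and 253624 CPM in IgG. It made up nearly all of the share of the 60 in these libraries, which was 26.3% ± 2.50 with anti-MAEL and 25.58% with IgG (exact 95% binomial interval 25.55% to 25.61%).

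**Figure D4:**
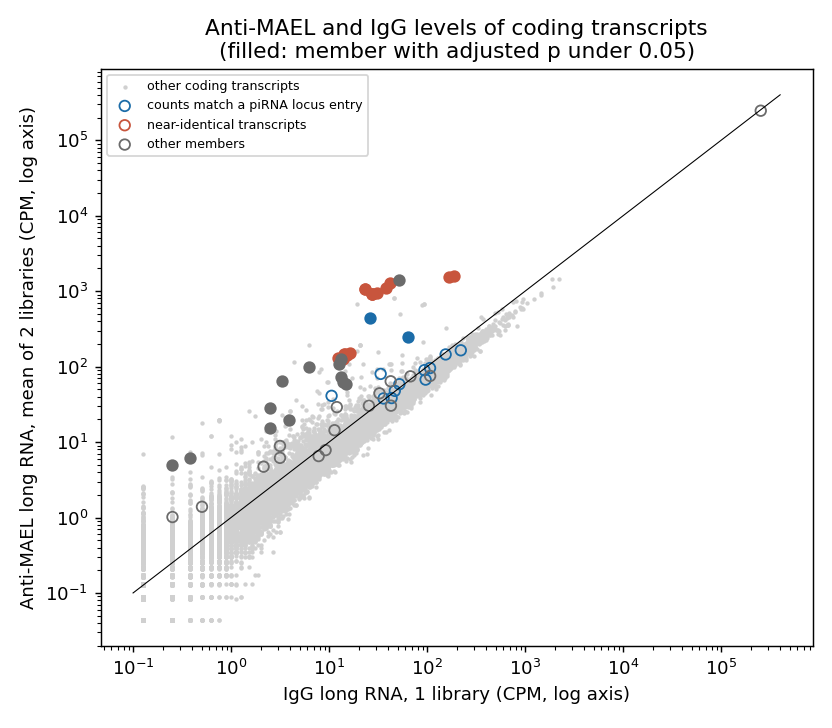
Mean level with anti-MAEL (2 libraries, y axis) against IgG (1 library, x axis), long RNA in CPM on log axes, with the line of equal levels; grey dots are coding transcripts below the threshold. Filled points, the called ones of the 60, lie up to 46.7-fold above IgG, most blue points lie along the line, and transcripts with 0 counts in either are not drawn (1 of the 60).

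The share of coding transcripts higher with anti-MAEL differed along the wild-type small RNA level. It was 0.212% (22 of 10400) under 1 CPM in the lower library, 1.57% (27 of 1725) at 1 to 10 CPM, 9.57% (20 of 209) at 10 to 25 CPM, 18.9% (7 of 37) at 25 to 50 CPM and 53.3% (32 of 60) from 50 CPM. The long-RNA level moved with it: the median for the 60 was 74.8 CPM in anti-MAEL and 19.7 CPM in IgG, against 1.798 and 2.02 CPM for the other coding transcripts, and the part of this in the result was not tested. The near-identical groups weigh on the last class, in which 19 of 47 (40.4%) were higher with 1 transcript per group. For mRNA the share of lower transcripts was 17.3% (of 9310) under 1 CPM and 33.3% (of 54) from 50 CPM, with 19.2%, 19.0% and 21.9% between.

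**Figure D5:**
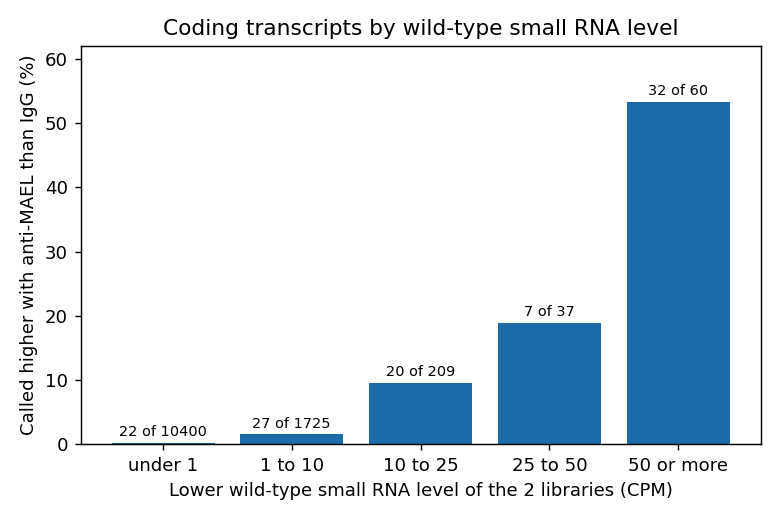
Share of coding transcripts called higher with anti-MAEL than with IgG (y axis, percent of those tested), by the lower of the 2 wild-type small RNA levels in CPM (x axis). The bars go from 0.212% under 1 CPM to 53.3% at 50 CPM or more, with the counts above each bar.

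The 32 transcripts higher with anti-MAEL were also followed in mRNA and footprints. In mRNA, 13 of the 29 tested were lower and 1 higher in Mael-/- (edgeR quasi-likelihood), and 6 and 2 of the 13 were the near-identical transcripts of 909 to 1452 nt and 1710 nt. Of the 28 not called with anti-MAEL, 5 of 25 were lower and 0 higher. Among all transcripts tested in mRNA, 17.7% were lower and 15.2% higher. In footprints, 4 of 22 were lower and 4 higher among those called with anti-MAEL, and 3 of 19 lower and 0 higher among those not called. Over all transcripts tested in footprints, 20.3% were lower and 11.3% higher. The difference between the called and uncalled sets was not tested. Small RNA log2 fold changes had a median of 0.14 for the 32 called with anti-MAEL and -1.52 for the 28 not called. All 17 near-identical transcripts are among the 32, so the first median counts the same groups repeatedly. It was not computed with 1 transcript per group. The correlation of small RNA change with anti-MAEL over IgG was 0.447 across the 60 and 0.244 across 47 with 1 transcript per near-identical group.

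In the anti-MAEL immunoprecipitate of 15 to 50 nt, which has 1 library and no IgG of its size, the 60 transcripts took 6.920% of counts (exact 95% binomial interval 6.917% to 6.924%). In that of 50 to 150 nt they took 2.012% (2.009% to 2.016%). These intervals cover counting error only. Coding transcripts together took 2.98% of wild-type small RNA counts (mean, n = 2) and 27.7% of counts at 15 to 50 nt with anti-MAEL. The 60 held 54.3% of the coding counts in the former and 24.95% in the latter. The rule chose the 60 by their wild-type small RNA, which raises their share in the former. No smaller rise of the 60 is therefore read from these shares. Coding transcripts together took more of the counts at 15 to 50 nt too, so a rise over wild-type small RNA was not particular to the 60. At 15 to 50 nt, 40 of the 60 stood above their mean level in wild-type small RNA: all 17 near-identical transcripts, 21 of the 30 others and 2 of the 13 with a locus entry. The ratio reached 44.4-fold for ENSMUST00000084677 (4414 CPM) and 70.1-fold for ENSMUST00000098119 (4413 CPM). For the transcripts with a locus entry its median was 0.0523, the ratio at pi-Tbl2 (60.4 CPM), and pi-Eif2c2 (1.25) and pi-Zfp280b (1.06) were the ones above 1. The 9 loci with long RNA near the IgG level all lay below their wild-type small RNA level here, at ratios from 0.00488 at pi-Fth1 to 0.575 at pi-Ddx19b.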

How the data were processed

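Each deposited file gives read counts for 1 library, per transcript or piRNA locus entry, with no normalization. Per the submitters' processing notes, CASAVA 1.8, Bowtie2 2.0.6, TopHat2 2.0.7 and build mm9 were used, with no role given; strand use, annotation and treatment of reads matching several features are not given in the sources used here. Per the labels' protocols, the kit for long RNA kept no strand and that for small RNA did. From their values, the deposited size columns of the mRNA and footprint tables were inferred to be codons with 60 nt left out (transcript length less 3 times the size was at least 59 nt, and 60 nt in 2023 of 18286), so these tables cover coding sequence and the others whole transcripts.

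Levels are CPM of all counts listed, loci with several entries included. Fits used 1 entry per locus, edgeR 4.0.16 (quasi-likelihood, TMM, filterByExpr, Benjamini-Hochberg adjustment over all features, adjusted p under 0.05) in R 4.3.3, with genotype or antibody as the term and no replicate block. DESeq2 1.42.0 was an alternative, beside other scalings, no filter, libraries left out, thresholds of 25 and 100 CPM and blocks. Scripts were tested on simulated data. The variance between libraries of a group was 3.30 to 54.2 times that of sampling noise (chi-square per degree of freedom), so none was merged. Transcripts named by ID were the 2 with the largest change (called, where tested) per direction and comparison at a mean of at least 5 CPM without overlap, and the 2 with the most small RNA. ENSMUST00000038863 was named outside this rule, after its values were seen, as were transcripts called by length or locus that the rule did not choose. The transcripts, lists and tests were chosen with earlier results of these data known. Each SE is the fitted log2 fold change over the root of its F statistic.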

Additional observations from a re-analysis of the deposited data

How the results depend on the processing

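The threshold and the totals behind it set the number of transcripts: 92 with 1 entry per locus in the totals, 97 at 25 CPM and 38 at 100 CPM. For small RNA, higher and lower counts were 26 and 12 with library totals, 0 and 6 with DESeq2's size factors in edgeR, 3 and 28 with DESeq2, 0 and 1 with no filter, and 8 and 34 with a replicate block. They were 3 and 14 at 25 CPM and 1 and 9 with 1 transcript per near-identical group, and 0 to 16 and 0 to 36 with 1 library left out. The median was 0.31 with library totals, -1.11 with DESeq2's size factors or DESeq2, -0.69 at 25 CPM, -1.16 at 100 CPM, -1.40 with 1 transcript per group, and -1.66 to -0.55 with 1 library left out.

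For mRNA, the higher count was 7 with library totals, 4 with no filter, 6 with the replicate block, 3 at 25 CPM, 0 at 100 CPM and 0 to 5 with 1 library left out. The lower count was 9 at 100 CPM and 0 to 22 with 1 library left out, and the median was -0.0231 with library totals, -0.0180 at 100 CPM and -0.59 to -0.19 with 1 library left out. For footprints, 11 were higher at 25 CPM, and the lower count was 2 with DESeq2, 11 with no filter, 3 with the replicate block, 11 with the crossed block, 16 at 25 CPM, 4 at 100 CPM and 2 to 4 with 1 library left out. The footprint median turned to 0.0031 with library totals and ranged from -0.27 to 0.0210 with 1 library left out, the last without wild-type b. The median of translational efficiency ranged from -0.19 to 0.42 with 1 library left out, below 0 without Mael-/- footprint a, and was -0.0329 with library totals.

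For anti-MAEL over IgG, 19 were higher with 1 transcript per group. The median was 2.27 with library totals, 1.66 at 25 CPM, 2.96 at 100 CPM, 1.78 with 1 transcript per group and 2.41 to 3.11 with 1 library left out. The cause was not tested, apart from the fewer transcripts that thresholds and groups leave. Counts in these fits are given without the share called over all features, so a move of the whole fit cannot be told apart.

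The letters a and b are not said to pair libraries. Differences between a and b correlated between genotypes at 0.506 in small RNA, 0.156 in mRNA and -0.138 in footprints, so the crossed block was added after seeing the data, as was the count per near-identical group. With the block, the footprint calls of pi-Kctd7 (adjusted p = 0.0557, edgeR) and of the pair of 1710 nt (0.0716) were lost, and the mRNA of ENSMUST00000169045 (0.00492), ENSMUST00000062637 (0.00464), ENSMUST00000061823 (0.0291) and pi-Fth1 (0.0239) passed. Of the single transcripts refitted, 4 turned sign in small RNA. ENSMUST00000100355 (-0.20) was 1.11 with library totals and -0.86 to 0.24 with 1 library left out, and ENSMUST00000084677 (-0.29) was 0.998 and -1.07 to 0.23. With 1 library left out, ENSMUST00000107022 (0.45) was -0.31 to 0.95 and ENSMUST00000098119 (0.50) was -0.37 to 1.06. Mael-/- footprints have the least depth, and 41 of the 60 transcripts passed the footprint filter.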
